A study of Mus musculus with 4 samples.

Results

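The apolipoprotein L (Apol) cluster of mouse chromosome 15 was examined for H3K27me3, the methylation mark of Polycomb silencing, in irradiated and control GL261 cells. The 4 genes described are Apol11a, Apol11b, Apol6 and Apol8, of 12 protein-coding Apol genes in the cluster and 21887 protein-coding genes in all. They were selected on the peaks that the deposited lists hold in and near the cluster, so their values are a description and were not tested. Their peaks are those in the RefSeq gene body with 5000 bp on either side, and those between the genes, from 77040050 to 77762062 of chromosome 15 (mm10), an interval of 722 kb. The interval held 77 of the 16091 peaks of the irradiated list and 24 of the 9866 peaks of the control list.

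GL261 is a mouse glioblastoma cell line. The irradiated and the control cells gave 1 H3K27me3 library each; the 1 input library per condition, of DNA taken before the immunoprecipitation step, was not analysed here. The label IR was taken as irradiated, from the series title; the labels used here state neither a dose nor a time of harvest. With 1 library in a group, no difference has a replicate check and no p-value between conditions was computed. Expression was not measured, so neither the cell type nor the activity of any Apol gene could be checked.

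Apolipoprotein L proteins are lipid-binding proteins with amphipathic helices. In humans, APOL1 circulates on high-density lipoprotein and kills trypanosomes by forming pores, whereas the other members lack a secretion signal and act inside the cell. Several human and mouse members are induced by interferon, and the mouse cluster has grown by tandem duplication. H3K27me3 is written by Polycomb repressive complex PRC2 and is typical of silent genes, in vertebrates above all at promoters rich in CpG dinucleotides.

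The start regions of the genes are shown because they show how alike the duplicated genes of the cluster are and how few CpG dinucleotides they hold. Each is the RefSeq window (GRCm38.p6, the assembly of mm10) of 250 bp before and 50 bp after the start site, in the direction of transcription. Capitals in Apol11a and Apol11b mark a match to GAAANNGAAA on either strand, a pair of GAAA half-sites 2 bases apart, as in the response element of interferon-induced genes; Apol8 has no match. Capitals in Apol7c mark the bases that lie inside an irradiated peak. Apol6 had no entry in the table.
Apol11a, chr15:77508019-77508318, plus strand: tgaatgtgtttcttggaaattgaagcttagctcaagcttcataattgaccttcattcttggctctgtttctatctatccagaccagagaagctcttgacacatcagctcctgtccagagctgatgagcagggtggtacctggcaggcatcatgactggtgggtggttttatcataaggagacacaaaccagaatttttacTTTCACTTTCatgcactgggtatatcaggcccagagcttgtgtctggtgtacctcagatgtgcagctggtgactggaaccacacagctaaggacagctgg
Apol11b, chr15:77643237-77643536, minus strand: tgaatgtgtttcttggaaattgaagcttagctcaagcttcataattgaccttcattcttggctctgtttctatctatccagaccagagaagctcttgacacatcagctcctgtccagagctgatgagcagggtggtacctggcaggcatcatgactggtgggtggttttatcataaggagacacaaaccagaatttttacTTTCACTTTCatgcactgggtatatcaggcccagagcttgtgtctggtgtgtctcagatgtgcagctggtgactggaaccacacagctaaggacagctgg
Apol8, chr15:77756961-77757260, minus strand: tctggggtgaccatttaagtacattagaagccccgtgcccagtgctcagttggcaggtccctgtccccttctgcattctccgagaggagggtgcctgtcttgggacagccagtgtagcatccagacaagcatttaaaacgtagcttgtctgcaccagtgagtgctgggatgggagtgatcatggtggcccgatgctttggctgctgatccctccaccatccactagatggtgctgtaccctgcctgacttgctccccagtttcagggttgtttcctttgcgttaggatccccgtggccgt
Apol7c, chr15:77533266-77533565, minus strand: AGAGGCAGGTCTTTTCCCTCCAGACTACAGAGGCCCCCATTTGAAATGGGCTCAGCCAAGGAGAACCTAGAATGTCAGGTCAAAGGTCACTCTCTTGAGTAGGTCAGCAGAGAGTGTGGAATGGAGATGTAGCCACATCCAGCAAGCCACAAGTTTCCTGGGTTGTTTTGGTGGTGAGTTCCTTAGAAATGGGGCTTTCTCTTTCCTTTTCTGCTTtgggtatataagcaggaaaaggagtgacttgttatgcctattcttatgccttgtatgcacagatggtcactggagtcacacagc

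The windows of Apol11a and Apol11b were identical at 298 of 300 bases. They differed by A251G and C252T, counted from 1 at the 5′ end of the window, with the Apol11a base first. Other pairs were as close: Apol9a and Apol9b were identical at 278 of 278 aligned bases, and Apol7b and Apol7e at 293 of 295. Apol10a and Apol11a shared 266 of 299 aligned bases. The labels do not say how reads that fit several copies were placed, and the part of such reads in the peaks of the cluster was not tested.

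The motif GAAANNGAAA was found in 8 of the 11 Apol windows of the cluster, against 3.35% of 21263 windows of protein-coding genes; near-identical copies are not independent cases. In Apol11a and Apol11b the match began 50 bp before the start site. The windows of Apol8, Apol7a and Apol7b did not hold these letters. The 11 windows held 0 to 7 CpG dinucleotides with a median of 2, against a median of 13 over all windows. Of all windows, 38.5% held 7 or fewer. Apol11a, Apol11b and Apol7c held 0 and Apol8 held 7.

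Apol11a (gene 626615, 77508129 to 77517874) held 4 peaks in the irradiated list and 0 in the control list. The strongest, at 77510660 to 77511298, was 639 bp wide, with a fold enrichment at the summit of 6.76 and a −log10 p of 9.56 (q of 1.47e-05). Fold, p and q are the authors' values, and q is the p adjusted over the genome. From fold and p, 19 ChIP reads were recovered at this summit. The background there was 0.704 scaled reads, the lowest of the irradiated list. Reads and background are in different units: 1 ChIP read counts as 0.554 scaled reads in the irradiated and 0.620 in the control list. The quotient of reads and background is therefore not the fold, here or at the peaks below. The peak had 2 summits and lay 2.39 to 3.03 kb downstream of the start site.

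The other 3 irradiated peaks of Apol11a were weaker, and all lay inside the gene. The peak at 77514060 to 77515056 was 997 bp wide, with a fold of 4.60, a −log10 p of 5.76 and 13 reads (q of 0.0135). The peak at 77511727 to 77512207 was 481 bp wide, with a fold of 4.16, a −log10 p of 5.04 and 11 reads. The first, at 77509968 to 77510237, was 270 bp wide, with a fold of 3.51, a −log10 p of 3.09 and 9 reads. Of the 4 peaks, 2 had a q of at most 0.05. The fewest reads that gave a listed peak over the lowest background were 8 in the irradiated and 7 in the control library, so an unlisted site may hold fewer reads and is not shown to lack the mark.

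The nearest peaks outside the 5000 bp around Apol11a were 5.48 and 6.86 kb beyond those 5000 bp in the irradiated list. In the control list they were 4.22 kb away, at 77498616 to 77498910 with a fold of 4.40, and 8.14 kb away, at 77531013 to 77531368 with a fold of 3.16. Control peaks therefore flanked the gene on either side.

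Apol11b (gene 328563, 77633951 to 77643286), 116 kb from Apol11a and on the opposite strand, held 9 peaks in the irradiated list and 1 in the control list. Inside the gene body there were 4 irradiated peaks and 0 control peaks. The strongest irradiated peak, at 77636592 to 77637808, was 1217 bp wide with 2 summits, a fold of 5.46, a −log10 p of 7.21 and 15 reads (q of 0.00171). It was the only one of the 9 with a q of at most 0.05. The other 8 had folds of 2.36 to 3.84 and 9 to 13 reads.

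Of the weaker irradiated peaks of Apol11b, 3 lay in the gene body. That at 77639572 to 77639940, nearest to the start site, was 369 bp wide with a fold of 2.99, a −log10 p of 2.44 and 9 reads. The peak at 77638217 to 77638486 had the lowest fold of all 77, 2.36, with 11 reads and a background of 2.00 scaled reads, above the lowest of its list. The peak at 77634478 to 77634809 had a fold of 3.51 and 9 reads, the same values as the weakest peak of Apol11a. Downstream of the gene, 4 more peaks stood close together between 77630338 and 77633930. From the farthest to the nearest, their folds were 3.29, 3.09, 3.70 and 3.50, with 12, 11, 13 and 11 reads. These 4 lay over backgrounds of 1.32, 1.30, 1.22 and 1.03 scaled reads, all above the lowest of the list, whereas 3 of the 4 peaks of Apol11a lay over the lowest.

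The control peak of Apol11b, at 77647580 to 77648086, was 507 bp wide, with a fold of 4.24, a −log10 p of 5.50 and 13 reads (q of 0.0519). It lay at −4.80 to −4.29 kb from the start site, upstream of the gene and inside the 5000 bp. An irradiated peak overlapped it, at 77647667 to 77648416, with a fold of 3.84, a −log10 p of 4.03 and 10 reads, and their summits were 164 bp apart. They shared 420 bp, which is 56.0% of the irradiated and 82.8% of the control peak. Folds were scaled within each list and are not a measure of change between them. Just outside the 5000 bp the next irradiated peaks were 1.95 and 2.26 kb away, and the next control peaks 6.71 and 17.4 kb away.

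Read along transcription, 2 pairs of irradiated peaks overlapped in distance, among 4 peaks of Apol11a and 9 of Apol11b. Whether this is more than peaks of such number and width would give by position alone was not tested. The irradiated peak of Apol11a at 5.79 to 6.79 kb and the strongest one of Apol11b at 5.48 to 6.69 kb from the start overlapped. So did those at 3.46 to 3.94 and 3.35 to 3.71 kb, of which the Apol11b peak had 9 reads and a q of 0.857. The strongest peak of Apol11a, at 2.39 to 3.03 kb, had no listed counterpart in Apol11b. Neither start window was touched by a peak: the nearest irradiated peak was 1.65 kb from that of Apol11a and 3.30 kb from that of Apol11b, and the nearest control peak 9.11 and 4.04 kb.

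**Figure D1:**
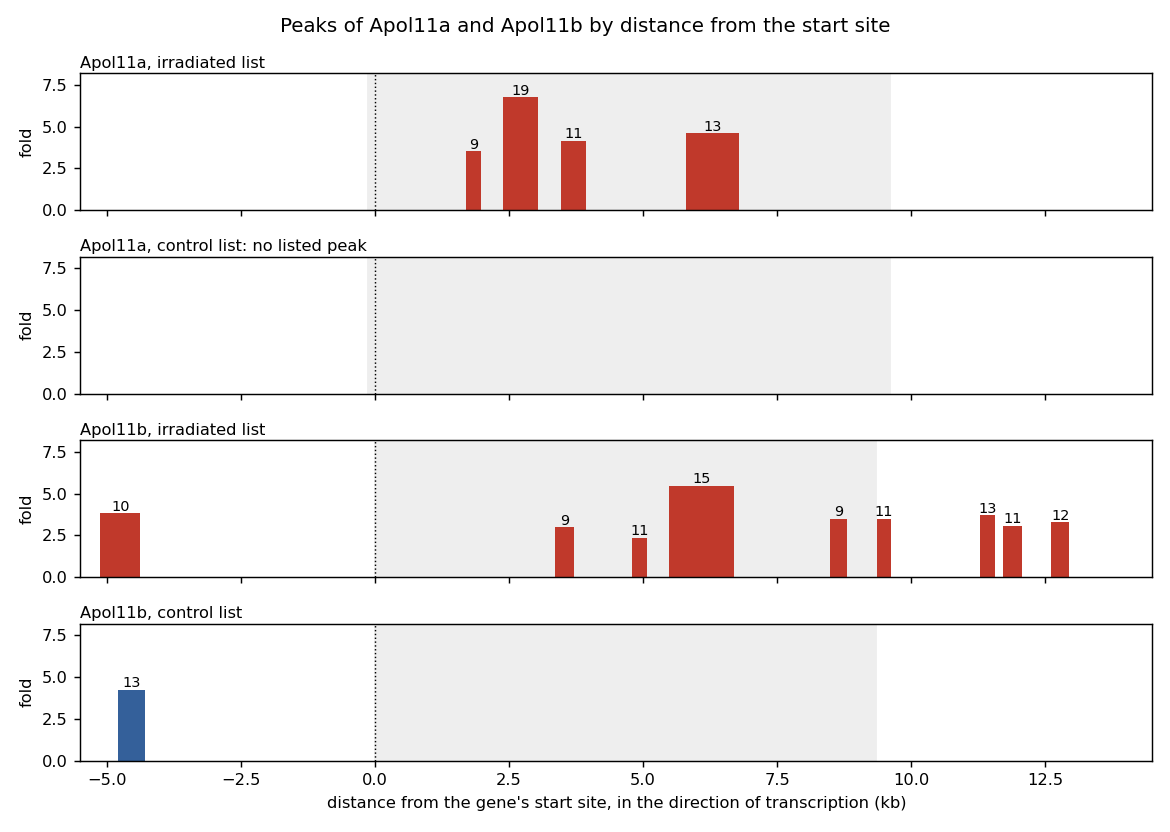
Peaks of Apol11a and Apol11b against distance from the start site in kb, with the authors' fold at the summit as height, the peak's extent as width and the recovered ChIP reads above each bar. Grey marks the gene body. Apol11a shows 4 irradiated and no control peaks, Apol11b 9 irradiated peaks and 1 control peak upstream of the gene.

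Apol6 (gene 71939, 77045050 to 77057108), whose human counterpart has been linked to cell death, held 0 peaks in the irradiated list and 0 in the control list. The nearest peaks beyond its 5000 bp were 57.5 and 312 kb away in the irradiated list and 59.96 and 363 kb away in the control list. Apol8 (gene 239552, 77745109 to 77757062) likewise held 0 and 0 peaks. Around Apol8 the nearest irradiated peaks were 23.4 and 116 kb away, and the nearest control peaks 49.8 and 288 kb away. These members stand at either end of the interval and were free of listed peaks in both libraries.

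Counted by gene, 2 of the 4 members had an irradiated peak, against 9.75% of all protein-coding genes under the same rule, and 1 of 4 had a control peak, against 7.13%. With an irradiated and no control peak there was 1 of 4, Apol11a, against 5.39% of all genes. Where a q of 0.05 or less was required, 2 of 4 had an irradiated peak (2.51% of all genes), and 2 of 4 had one with no such control peak (2.06% of all genes). On chromosome 15, which carries the cluster, the shares of genes were higher: 23.8% had an irradiated peak, 20.4% a control peak and 9.15% an irradiated and no control peak. Under the q limit they were 10.3% with an irradiated peak and 7.22% with no such control peak. Of 1180 genes with an irradiated and no control peak, Apol11a ranked 3rd by the p of its strongest peak. Since the members were selected on these peaks, nothing is read from the shares or from this rank.

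As a check of the libraries, genes known to carry the mark in many cell types were counted, and their shares with any listed peak lay near those of all genes. Of 51 known Polycomb targets, 39 of them Hox genes, 6 had an irradiated peak (11.8%) and 3 a control peak (5.88%), beside 9.75% and 7.13% of all protein-coding genes. A q of at most 0.05 was given at 0 of the 51 in the irradiated list and at 2 in the control list, beside 2.51% and 0.649% of all genes. Those 2 were the neighbouring Hoxc4 and Hoxc5, which share 1 control peak of fold 4.59, while their strongest irradiated peak had a fold of 4.22. The other 4 targets with an irradiated peak had no control peak, and Gata6 had a control peak, of fold 3.75, but no irradiated one. The check thus did not show that the lists recover known targets. Whether these targets carry the mark in GL261 cells was not tested. A listed peak, in the Apol cluster too, is therefore not by itself shown to carry the mark.

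The Apol genes with and without a listed peak lay in separate blocks. Peaks were listed at 7 of the 12 genes in the irradiated list and at 5 in the control list, beside 23.8% and 20.4% of chromosome 15 genes, and the 7 with irradiated peaks followed one another without a gap, from Apol7b to Apol7e. Apol7b held 7 irradiated and 5 control peaks, Apol10a 8 and 3, Apol7c 5 and 3, and Apol10b 5 and 3. Apol7e, at the far end of the block, held 8 irradiated peaks and 0 control peaks, with 5 irradiated peaks of a q of at most 0.05, the highest number among the 12 genes. Apol7a, Apol9a and Apol9b held 0 peaks in both lists, as did Apol6 and Apol8. Apol9b begins 12.3 kb after the last irradiated peak of the block.

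In the 7 genes the strongest irradiated peak was that of Apol11a, followed by Apol11b and Apol10a. Apol10a had a fold of 5.45 with 16 reads (q of 0.00357), and Apol7c and Apol10b a fold of 5.14 with 14 reads each (q of 0.0119). Apol7b had a fold of 4.81 with 13 reads (q of 0.0119). The strongest control peaks had higher q: Apol10a had a fold of 3.87 with 11 reads (q of 0.385) and Apol7b a fold of 3.33 with 14 reads (q of 0.448). A q of at most 0.05 was given to 23 of 77 irradiated peaks (29.9%) and to 0 of 24 control peaks of the interval. The lists differ in this share as a whole: it was 15.2% of all irradiated and 6.84% of all control peaks, and 21.0% and 7.33% on the rest of chromosome 15. The lowest control q, 0.0519, was shared by the peak near Apol11b and one at 77689548 to 77690281.

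**Figure D2:**
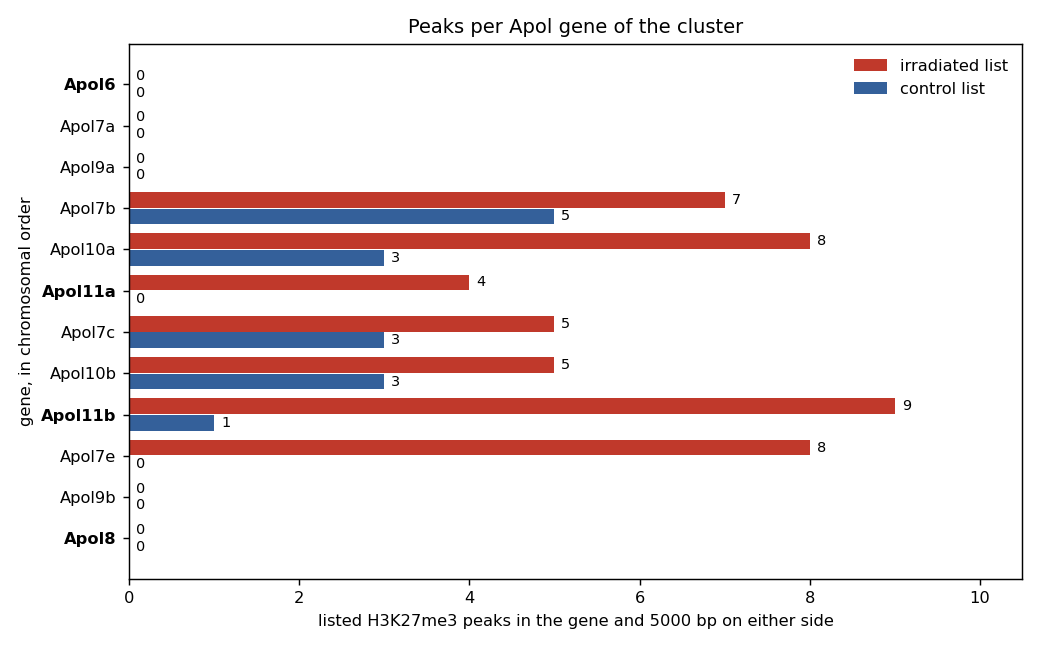
Number of listed peaks in each of the 12 protein-coding Apol genes with 5000 bp on either side, in chromosomal order, with the irradiated list above the control list for each gene and the 4 described genes in bold. Apol7b to Apol7e hold 4 to 9 irradiated and 0 to 5 control peaks; the genes at either end hold none.

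Apol7c was the only gene of the 11 with a start window that a listed peak touched. The irradiated peak at 77533350 to 77533717 covered 216 of its 300 bases, the capitals in the sequence above, with a fold of 3.51 and 9 reads (q of 0.537). The nearest control peak was 0.785 kb away. Apol7e and Apol7b had irradiated peaks 0.371 and 0.416 kb from their windows, and control peaks 8.36 and 0.939 kb away. The windows do not cover every annotated gene end. The gene bodies of Apol10b and Apol7e begin at −2.42 and −3.18 kb from the start sites used. A control peak at 77598415 to 77599226 overlapped that upstream end of Apol10b, and an irradiated peak at 77597408 to 77598183 lay just inside it.

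Between the genes lay 44 of the 77 irradiated and 14 of the 24 control peaks, by the position of the summit. From the first to the last peak, 222 kb lay between the genes and 121 kb in them, so the counts show no preference for the space between genes. The stretch from Apol11b to Apol7e held 13 irradiated and 6 control peaks, and the stretch from Apol10b to Apol11b held 12 and 3. The strongest peaks outside genes were irradiated ones. That at 77665857 to 77666354 had a fold of 6.11 and 17 reads (q of 0.000173), and that at 77620661 to 77621898, between Apol10b and Apol11b, had a fold of 5.76 and 19 reads (q of 0.00033). The stretch between Apol11a and Apol7c, 6.98 kb long, held 0 peaks in both lists.

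The peaks lay in the right-hand part of the interval. Irradiated peaks ran from 77374114 to 77716716, over 343 kb, and control peaks from 77425279 to 77690281, over 265 kb. They covered 42.1 kb in the irradiated list and 11.5 kb in the control list, with a median fold of 3.88 and 3.38 and a median width of 441 and 386 bp. The median gap between neighbouring irradiated peaks was 1.53 kb, and 30 of 76 gaps were at most 1000 bp, against 4.36 kb and 2 of 23 gaps in the control list. The widest irradiated gap, 48.1 kb from 77377163 to 77425239, holds Apol7a and Apol9a and parts the first 3 irradiated peaks from the rest. The widest control gap was 50.4 kb, from 77537423 to 77587802. Further summits in the same peak were given for 10 irradiated peaks, up to 4 summits, and for 3 control peaks, up to 2. The first 334 kb of the interval, with the whole of Rbfox2, a gene of a splicing regulator, and the last 45.3 kb, which reach into Myh9, the gene of nonmuscle myosin heavy chain, held 0 peaks in both lists.

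**Figure D3:**
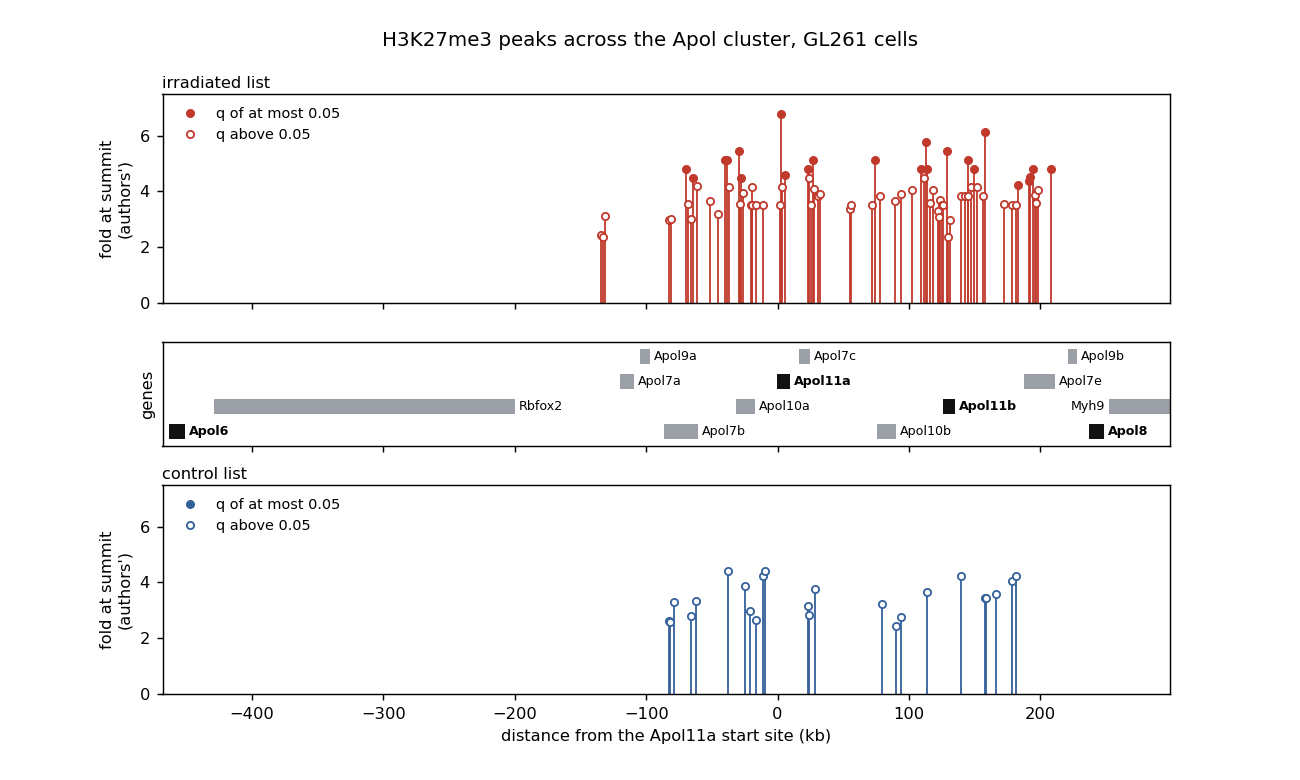
Position of each peak's summit in kb from the start site of Apol11a, with the authors' fold as height, for the irradiated list (top) and the control list (bottom); genes lie between, the 4 described ones in black, and Myh9 runs past the right edge. Filled points have a q of at most 0.05, which 23 irradiated and 0 control peaks reached, and Apol6 and Apol8 stand outside the range of the peaks.

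Density in the interval was 107 peaks per Mb in the irradiated list (95% exact Poisson interval 84.2 to 133) and 33.2 in the control list (21.3 to 49.5). On the rest of chromosome 15 it was 27.4 (26.4 to 28.4) and 22.1 (21.2 to 23.0), and on the other chromosomes 5.07 and 2.90. Irradiated peaks outnumbered control peaks by a ratio of 3.21 in the interval, 1.24 on the rest of chromosome 15 and 1.75 on the other chromosomes. The ratio in the interval was 2.14 with peaks within 1000 bp merged and 2.25 with equal numbers of peaks from both lists. With a −log10 p of at least 5 it was 7.25, but that limit raised the ratio elsewhere too. It left 930 irradiated and 305 control peaks on the rest of chromosome 15, and 3418 and 770 on the other chromosomes. The whole lists held 13922 and 9069 peaks after merging, and are equal in the equal-number setting by construction. The interval was selected on these peaks, so densities and ratios are a description. The Poisson intervals cover counting error only and take peaks as independent, which neighbouring peaks are not. In windows of 100 kb, 77600001 to 77700000 held 30 irradiated and 8 control peaks. Of 26926 windows of the genome, this one included, 10 held at least as many irradiated peaks, 8 of them on chromosome 15. At least as many control peaks were held by 157 windows, this one included, 83 of them on chromosome 15.

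Irradiated peaks of the interval rested on 8 to 19 reads with a median of 12, and control peaks on 7 to 14 reads with a median of 11. Read numbers depend on the depth of each library, so a difference in reads between the libraries is not read as a difference in signal. Background was below 1.5 times the lowest of the list at 59 of the 77 irradiated and 16 of the 24 control peaks, and its maximum was 2.56 and 2.00 scaled reads. The lowest was 0.704 in the irradiated and 0.918 in the control list. Scaling differs between the lists, so backgrounds are not compared between them. At the lowest background the libraries carried an average of 1.27 and 1.48 ChIP reads per position in the irradiated and the control library; library totals are unknown.

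**Figure D4:**
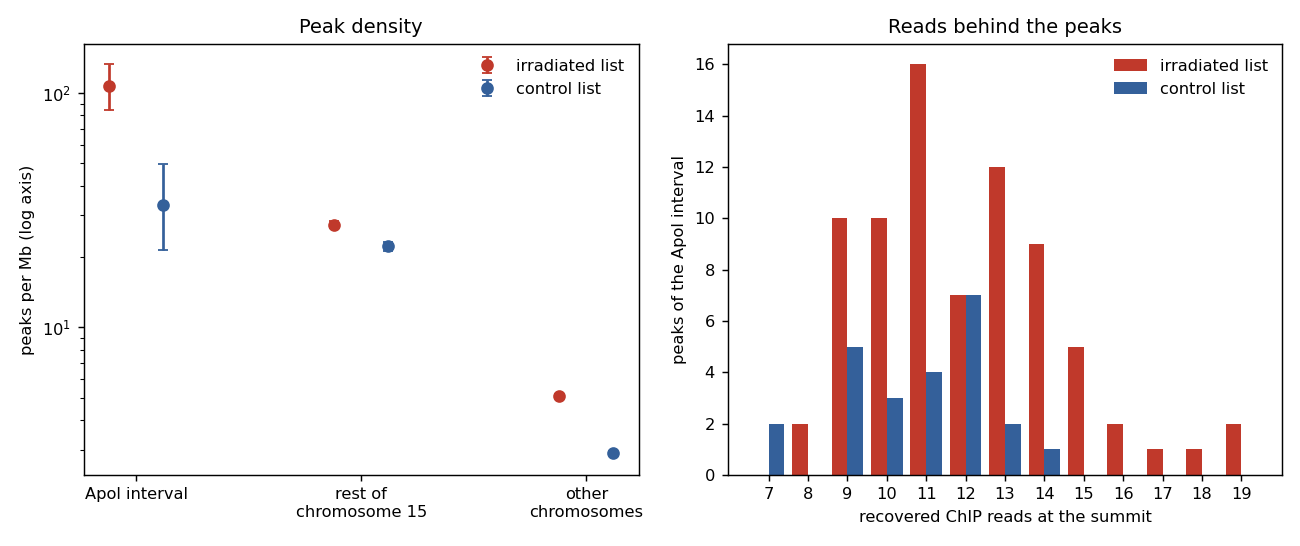
Left, peaks per Mb on a log axis in the Apol interval, the rest of chromosome 15 and the other chromosomes, irradiated list left of control list, with 95% exact Poisson intervals; the interval holds 107 irradiated and 33.2 control peaks per Mb. Right, number of peaks of the interval by recovered ChIP reads at the summit, from 8 to 19 in the irradiated and from 7 to 14 in the control list.

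Of the irradiated peaks of the interval, 14 of 77 (18.2%, exact 95% binomial interval 10.3 to 28.6) overlapped a control peak, and of the control peaks 14 of 24 (58.3%, 36.6 to 77.9) overlapped an irradiated one. The same shares on the rest of chromosome 15 were 23.7% and 29.1%. The share of control peaks that meet an irradiated one also depends on how densely irradiated peaks lie, and they covered 5.83% of the interval against 1.31% of the rest of chromosome 15. Another 7 control peaks brought those within 1000 bp of an irradiated peak to 21 of 24, and the farthest was 5400 bp away. In the 14 overlapping pairs the summits were 16 to 470 bp apart, and the irradiated peak had the higher fold in 9. By reads the irradiated peak was higher in 6 and the control peak in 7, with 1 tie, and neither measure is scaled between the libraries. The pair with the irradiated peak at 77665857 to 77666354 had 17 irradiated and 9 control reads. A pair in Apol7b, at 77442430 to 77442807, had 8 irradiated and 12 control reads.

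Genes outside the interval with the most similar pattern, at least 3 irradiated and no control peaks and the lowest p, were Pnoc, Tbx21, Jaml, Gsg1l2 and Vwf. Of all protein-coding genes, 186 (0.85%) met the count. Tbx21, the gene of the T cell transcription factor T-bet on chromosome 11, held 4 irradiated peaks, 1 of them in the gene body, and its top peak had a fold of 6.11 with 17 reads (q of 0.000173). Pnoc, which encodes the nociceptin precursor, held 3, the strongest with 23 reads and a background of 1.32 scaled reads. Vwf, the gene of von Willebrand factor, held 19, its top fold being 4.71 with 20 reads.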

How the data were processed

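The authors deposited 1 peak list per H3K27me3 library. Per the labels' protocols, chromatin fixed with 1% formaldehyde and sheared to 300 to 500 bp was sequenced as paired 150-bp reads. BWA, deepTools and the build mm10 are named, versions aside, in the submitters' processing notes. Which program called the peaks, with what settings and with or without the input, was not given in the sources used here. Each deposited score equals 10 times the −log10 p, cut to a whole number. The ratio in the deposited lists is a fold enrichment over the caller's background. Beside it the authors give the −log10 p-value and the −log10 q-value, and the lists reach down to a −log10 p of 2.30 (irradiated) and 2.31 (control). Start, end and summit, deposited as other values in bp, are given here counted from 1.

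Lines that gave a further summit of a peak, 679 irradiated and 215 control, were merged with it. Reads were recovered with a Poisson tail, taking the fold as pileup over background with 1 added to both; 100% of peaks gave a whole number within 0.001 of the −log10 p. More than 1 whole number was possible for 0.292% of irradiated and 0% of control peaks. The calculation returned 100% of reads on data simulated from the same formula (3577 irradiated and 3599 control peaks), which checks the arithmetic and not the model, and no label names the model.

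Genes, start sites and sequences came from RefSeq tables of GRCm38.p6, with the most upstream of several listed starts; exons were not resolved. A peak counted for a gene when it overlapped the body with 5000 bp by at least 1 bp. Members and gene lists were chosen with earlier results of these data known. The genes named besides the members followed a rule: all Apol genes, the neighbours, 3 gene lists and the 5 most similar genes. Single peaks outside genes and the 100-kb window were chosen after their values were seen. No test between conditions was made. Alternatives were stricter q or p, equal numbers of peaks, merging within 1000 bp, lines as deposited, and other gene windows and overlap rules. Python 3.11.15, pandas 2.3.3, SciPy 1.17.1 and Matplotlib 3.10.9 were used.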

Additional observations from a re-analysis of the deposited data

How the results depend on the processing

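For the 8 counts above 0, 32 of 53 recomputed values stayed within 1.5 times the reported count. The counts of 0 (Apol6 and Apol8 in both lists, Apol11a in the control list) could not gain a peak under these alternatives, so their 40 values say nothing about stability. At a q of 0.05 or less the interval held 23 irradiated and 0 control peaks, Apol11a 2 and Apol11b 1 irradiated peaks, and 0 members had a control peak, so that Apol11b had 0. Requiring a −log10 p of 5 or more, the interval held 29 and 4 peaks, Apol11b 1 irradiated peak, and 1 irradiated peak met a control peak. With lists trimmed to the same number of peaks the interval held 54 irradiated and 24 control peaks and Apol11b 4 irradiated ones. Merging within 1000 bp left 47 irradiated and 22 control peaks in the interval, with 2 irradiated ones at Apol11a and 5 at Apol11b. With the gene body alone Apol11b held 4 irradiated peaks, and with the body alone or with 2000 bp it held 0 control peaks, which left 0 members with one. Irradiated peaks that met a control peak numbered 8 with a reciprocal overlap of 50% and 26 within 1000 bp. Counted as lines deposited, with each further summit as a line, the interval held 90 irradiated and 27 control lines. Apol11a then held 5 and Apol11b 10 irradiated lines. The other alternatives use fewer peaks, smaller regions or another rule of overlap by construction. Peaks of the interval rested on 8 to 19 irradiated and 7 to 14 control reads, from 1 library per condition.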

Other observations

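Beyond the cluster, the nearest gene with a listed peak among the neighbours was Cacng2, which encodes stargazin, an auxiliary subunit of AMPA receptors. It held 14 irradiated and 2 control peaks; its top fold was 6.76 (19 reads) in the irradiated list and 3.57 (12 reads) in the control list. The other 9 nearest genes outside the interval held 0 peaks in both lists, as did Mb, Rbfox2 and Myh9, which lie in it or reach into it. Apold1, a gene of a related endothelial protein on chromosome 6, held 0 and 0 peaks, and so did Apol7d, annotated as a noncoding RNA gene on chromosome 1. The pseudogene Apol10c-ps, next to Apol11b, held 5 irradiated peaks and 0 control peaks with 5000 bp on either side.

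Of 17 apolipoprotein genes of other families, which encode carriers of plasma lipids and related proteins, 2 had an irradiated peak (11.8%) and 0 a control peak, beside 9.75% and 7.13% of all protein-coding genes. Apool, of a mitochondrial cristae protein, had a fold of 5.21 with 17 reads (q of 0.0022), and Apof a fold of 3.51 with 9 reads (q of 0.537). Of 25 interferon-stimulated genes 23 matched the annotation, and 0 had an irradiated peak and 1 a control peak (4.35%), beside the same shares of all genes. That was Usp18, the protease that removes ISG15 from proteins, with a fold of 2.40 and 10 reads (q of 1).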
